A study of Rattus norvegicus with 12 samples.

Results

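The ErbB receptors and the growth factors of the epidermal growth factor (EGF) family were described here in rat Schwann cells, the glial cells of peripheral nerves. The set was fixed by gene name and holds 10 of the 30957 genes in the deposited table: the receptors Egfr, Erbb2 and Erbb3, the ligands Nrg1, Areg, Ereg, Hbegf, Tgfa and Btc, and the receptor inhibitor Errfi1. Messenger RNA was sequenced in 4 groups of cultures, each represented by 3 libraries. The Schwann cells were grown alone and untreated (titled Rsc96, with HSC96 in the short descriptions), with monocyte-derived macrophages (MDM, titled PBMC, whose treatment field also reads untreated), with tumour-associated macrophages (TAM) induced by BxPC-3 (BxTAM), or with TAM induced by MIA PaCa-2 (MiaTAM), both lines being human pancreatic cancers. Of the macrophages, neither the species nor their removal before RNA extraction is stated in the labels, and the same holds for the duration and format of the co-culture. Nothing in the labels ties the libraries within each group to independent cultures, so p-values measure the spread between these libraries, which may be technical.

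ErbB receptors are receptor tyrosine kinases that work in pairs. Egfr binds EGF-like ligands such as amphiregulin, epiregulin, heparin-binding EGF and transforming growth factor alpha, Erbb3 binds neuregulins but has little kinase activity of its own, and Erbb2 binds no known ligand and serves as the partner kinase. In Schwann cells, axonal neuregulin 1 acting on Erbb2 and Erbb3 is the classical signal for survival, migration and myelination. Most ligands are made as membrane-bound precursors that metalloproteases release, and Errfi1 is an inducible cytoplasmic protein that binds the activated receptor kinase and blocks it.

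The promoters of 3 genes are shown: Errfi1 as the most abundant of the genes, Areg as a ligand that was higher with both kinds of TAM than with MDM or alone, and Egfr because it had almost no counts. Each sequence is the 250 bases before the annotated start, read 5′ to 3′ on the gene's strand from RefSeq on the GRCr8 build, which held a window for 7 of the 10 genes. The Errfi1 window lies at chr5:166606591-166606840 on the plus strand, the Areg window at chr14:17265642-17265891 on the minus strand and the Egfr window at chr14:95378376-95378625 on the plus strand. Capitals mark TGACGTCA or its part ACGTCA, the letters of the cyclic AMP response element, and TATAAA, the letters of the TATA box.
Errfi1: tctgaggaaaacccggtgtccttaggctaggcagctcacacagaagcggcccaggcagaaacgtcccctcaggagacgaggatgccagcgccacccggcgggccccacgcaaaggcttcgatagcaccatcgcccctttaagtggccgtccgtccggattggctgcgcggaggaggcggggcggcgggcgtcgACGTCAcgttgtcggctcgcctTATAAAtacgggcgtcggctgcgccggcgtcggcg
Areg: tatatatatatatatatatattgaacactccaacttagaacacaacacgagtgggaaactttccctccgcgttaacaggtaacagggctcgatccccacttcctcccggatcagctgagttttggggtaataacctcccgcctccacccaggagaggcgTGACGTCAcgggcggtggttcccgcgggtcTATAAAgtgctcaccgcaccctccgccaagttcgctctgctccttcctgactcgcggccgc
Egfr: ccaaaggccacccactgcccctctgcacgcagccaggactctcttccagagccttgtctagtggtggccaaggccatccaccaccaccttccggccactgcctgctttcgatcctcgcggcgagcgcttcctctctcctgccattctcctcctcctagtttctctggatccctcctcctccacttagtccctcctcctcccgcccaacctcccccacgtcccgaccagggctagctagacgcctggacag
The motifs were chosen after the sequences had been seen. TGACGTCA, searched on both strands, was found 91 bases before the start of Areg and in 1.59% of all 33469 windows of the same length. Errfi1 had the shorter ACGTCA 57 bases before its start, and these letters, searched on both strands and also contained in TGACGTCA, were present in 6.95% of all windows. TATAAA on the gene's strand stood 61 bases before the Areg start and 35 bases before the Errfi1 start, and occurred in 8.06% of windows. The Egfr window held neither, nor did those of Erbb2, Hbegf, Tgfa and Btc. GGGCGG, the letters of the GC box, was found on either strand 72 bases before the start of Errfi1, 82 before that of Areg and 51 before that of Egfr, and occurred in 30.5% of windows. TGANTCA, the letters bound by AP-1, was in 6.34% of windows and in none of the 7. A match is a run of letters and not a measured binding site.

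Library totals ranged from 16555215 to 21506669 counts, and 12360 genes, including 9 of the 10 members, passed the filter on low counts. Of 13 Schwann cell markers, 12 were found and 6 stayed under 1 CPM (counts scaled to library size) in every group. The defining transcription factor Sox10 had 1 count over all 12 libraries and Cdh19 had 0, whereas Ncam1 averaged 107 to 196 CPM, so the labelled cell type was only partly reflected in its markers. Of 22 macrophage markers, 16 stayed under 1 CPM in every group and Tyrobp, C1qa and Marco had 0 counts. The summed macrophage markers were 28.0 to 30.9 CPM in cells alone, 62.9 to 69.1 with MDM, 60.2 to 61.9 with BxTAM and 66.5 to 70.5 with MiaTAM. The 6 markers that reached 1 CPM in any group all had a higher mean in every co-culture than in cells alone. In the order alone, MDM, BxTAM and MiaTAM, Itgax was 17.2, 46.2, 37.6 and 41.4 CPM, Csf1r 3.34, 5.68, 7.70 and 9.25, and Cd14 4.43, 6.38, 6.97 and 7.35. Lcp1 was 1.56, 3.62, 3.97 and 4.41 CPM, Cd74 0.963, 2.10, 2.20 and 2.77, and Cd68 0.416, 1.10, 1.16 and 1.87. The pan-leukocyte gene Ptprc had 0, 0, 1 and 2 counts per group. Of 10 epithelial markers, Epcam, Krt19 and Cldn7 were at 0, and the sum ran from 37.7 to 39.2 CPM alone, 40.0 to 42.6 with MDM, 29.9 to 33.9 with BxTAM and 44.2 to 46.5 with MiaTAM. The 7 fibroblast markers, of which Col1a2, Dcn and Lum were at 0, summed to 369 to 381, 483 to 507, 421 to 444 and 472 to 505 CPM, and the 6 lymphocyte markers, with Cd3d and Nkg7 at 0, to 0.909 to 1.69 CPM over all libraries. Their part in the results below was not tested, and in such bulk samples fewer cells of a type and less RNA per cell cannot be told apart.

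The inhibitor and a pair of ligands dominated the family at the level of messenger RNA. On the FPKM scale (fragments scaled by transcript length and library size), in cells alone, Errfi1 averaged 292 ± 0.986 (SD, n = 3), Hbegf 181 ± 2.45, Tgfa 75.4 ± 0.920, Areg 14.7 ± 1.53 and Ereg 9.53 ± 0.338. The receptors Erbb2 at 3.01 ± 0.241 and Erbb3 at 1.21 ± 0.146, and the ligands Nrg1 at 0.855 ± 0.0986 and Btc at 0.379 ± 0.0163, stood well below them. Among tested genes, 98.6% had a lower mean FPKM than Errfi1 and 97.5% a lower one than Hbegf, but only 16.0% a lower one than Erbb3. The same order of levels held in the BxTAM and MiaTAM groups, with no overlap between neighbours in the order. With MDM, Erbb2 at 3.70 ± 0.406 FPKM stood above Ereg at 3.47 ± 0.0611, and the libraries of these neighbours overlapped.

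**Figure D1:**
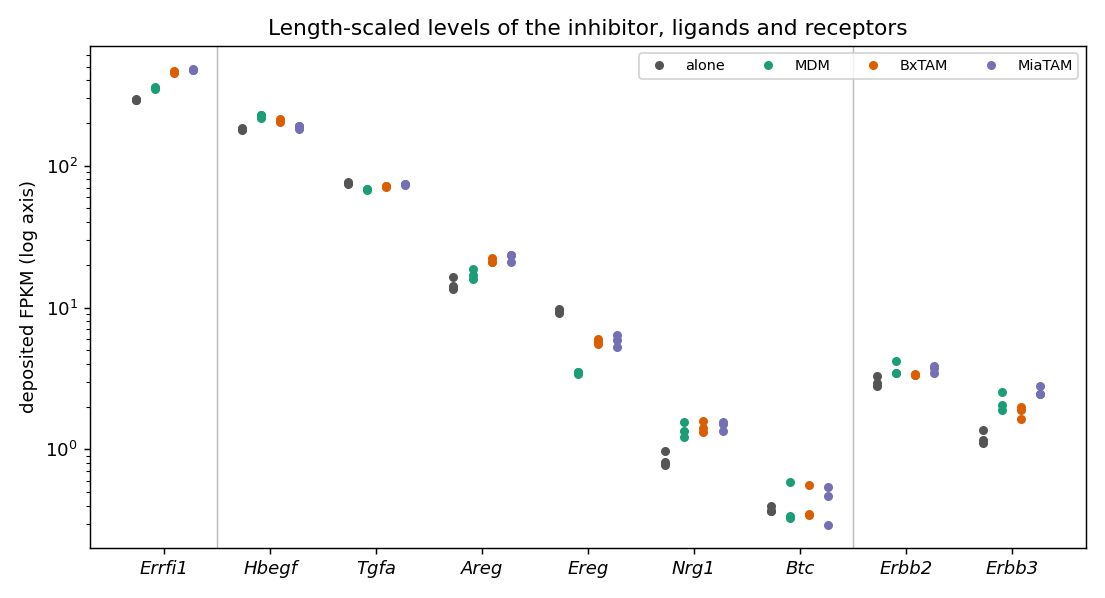
Deposited FPKM, on a log axis, of the inhibitor Errfi1 (left), the 6 ligands (middle) and the 2 tested receptors (right), with 1 point per library and the 4 groups in colour; Egfr, at 0 in 10 libraries, is not drawn. Errfi1, Hbegf and Tgfa lie far above Erbb2, Erbb3, Nrg1 and Btc in every group.

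Hbegf and Tgfa together made up 89.0% to 93.3% of the summed FPKM of the 6 ligands in every library. That sum lay between 279 and 319 FPKM over the 12 libraries. Ligands of Egfr were thus abundant in cells with almost no Egfr counts, and Nrg1 was the least abundant of these 6 ligands after Btc.

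Egfr, the receptor for most of these ligands, had 1, 0 and 1 counts in the 3 libraries of cells alone and 0 counts in all 9 co-culture libraries. For cells alone this is 0.0360 CPM over the group, with an exact Poisson 95% interval of 0.00436 to 0.130, which covers counting error only. For the groups at 0 counts, the upper bound of the same two-sided interval was 0.0648 CPM with MDM and 0.0680 CPM with BxTAM or MiaTAM; the limit of 3 counts over the group, a narrower convention, was 0.0527 and 0.0553 CPM. Egfr (chr14:99919485-100098796 on Rnor_6.0, the build of all positions that follow) was therefore not detected at this depth in co-culture, and no fold change was computed. The neuregulin receptor Erbb4 was nearly as low, with 5 counts in 3 of the 12 libraries.

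Erbb3 (chr7:2989340-3010350), the neuregulin-binding receptor, rose in all 3 co-cultures. Its level was 8.13, 6.78 and 6.50 CPM in the libraries of cells alone and 12.2, 11.4 and 15.1 CPM with MDM. It was 11.8, 11.3 and 9.73 CPM with BxTAM and 14.5, 14.5 and 16.6 CPM with MiaTAM. Every co-culture library was above every library of cells alone. Genes were called at a Benjamini-Hochberg adjusted p under 0.05 in edgeR's quasi-likelihood test over all genes tested, and this is the test behind each adjusted p given. The log2 change against cells alone was 0.87 ± 0.12 (SE) with MDM (adjusted p = 2.2e-06) and 0.62 ± 0.12 with BxTAM (adjusted p = 2.0e-04). With MiaTAM it was 1.10 ± 0.12, or 2.14-fold (adjusted p = 7.0e-08). Erbb3 was also the tested receptor called between the TAM groups, being higher with MiaTAM than with BxTAM by 0.48 ± 0.11 (adjusted p = 0.0040), with no overlap between their libraries. The MDM libraries overlapped those of both, and neither TAM group passed the test against MDM (BxTAM -0.25 ± 0.11, adjusted p = 0.093; MiaTAM 0.23 ± 0.11, adjusted p = 0.094). Both of those outcomes depended on 1 library, and a call was gained when it was left out. Without MDM replicate 2, BxTAM was lower than MDM (-0.33, adjusted p = 0.044). Without MDM replicate 3, MiaTAM was higher than MDM (0.36, adjusted p = 0.013).

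Erbb2 (chr10:86367596-86391728), the partner kinase, changed less than Erbb3. It was 19.9, 17.6 and 17.1 CPM in cells alone, 21.2, 21.6 and 25.5 with MDM, 20.9, 20.3 and 20.3 with BxTAM, and 23.5, 22.7 and 21.3 with MiaTAM. No co-culture library fell into the range of cells alone. The rise was 0.33 ± 0.08 on the log2 scale with MDM (adjusted p = 0.0013) and 0.31 ± 0.08 with MiaTAM (adjusted p = 0.0024). With BxTAM the difference of 0.17 ± 0.08 missed the threshold (adjusted p = 0.077), and it passed without replicate 1 of the cells alone (0.25, adjusted p = 0.024). The BxTAM libraries lay below those of MDM and of MiaTAM without overlap, but neither Erbb2 difference was called. BxTAM differed from MDM by -0.16 ± 0.08 (adjusted p = 0.13) and MiaTAM from BxTAM by 0.14 ± 0.08 (adjusted p = 0.23). As Erbb3 gained more than Erbb2, the ratio of Erbb2 to Erbb3 FPKM was 2.49 ± 0.0958 in cells alone, 1.72 ± 0.101 with MDM, 1.83 ± 0.169 with BxTAM and 1.45 ± 0.179 with MiaTAM (SD, n = 3).

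Nrg1 (chr16:63837216-64057434), which encodes the neuregulin that Erbb3 binds, was low but rose by a similar amount in each co-culture. Its level was 4.32, 5.05 and 4.10 CPM in cells alone, 8.30, 6.59 and 7.14 with MDM, 8.42, 7.07 and 7.53 with BxTAM, and 7.09, 8.02 and 8.35 with MiaTAM. The groups with macrophages overlapped each other and lay above all libraries of cells alone. The log2 change against cells alone was 0.70 ± 0.13 with MDM (adjusted p = 5.7e-05), 0.77 ± 0.13 with BxTAM (adjusted p = 2.2e-05) and 0.79 ± 0.13 with MiaTAM (adjusted p = 1.3e-05). Between the co-cultures no difference was called, and the 95% interval of BxTAM against MDM ran from -0.17 to 0.31 and that of MiaTAM against MDM from -0.15 to 0.33.

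Areg and Ereg, which encode amphiregulin and epiregulin and are neighbours on chromosome 14, moved in opposite directions against cells alone. Areg (chr14:18521930-18531179) was 16.1, 15.2 and 18.6 CPM in cells alone, 21.3, 18.6 and 19.4 with MDM, 23.8, 25.5 and 24.0 with BxTAM, and 26.8, 26.9 and 24.0 with MiaTAM. The MDM libraries touched the range of cells alone, while both TAM groups lay above both. Against cells alone, Areg rose by 0.55 ± 0.08 on the log2 scale with BxTAM (adjusted p = 6.8e-06) and by 0.64 ± 0.08 with MiaTAM (adjusted p = 8.8e-07). The smaller rise with MDM, 0.25 ± 0.08 (adjusted p = 0.014), was lost without replicate 2 of the cells alone (adjusted p = 0.078) or without MDM replicate 1 (adjusted p = 0.075). Areg was higher with BxTAM than with MDM by 0.31 ± 0.08 (adjusted p = 0.0055) and with MiaTAM than with MDM by 0.39 ± 0.08 (adjusted p = 5.6e-04).

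Ereg (chr14:18576355-18591394) showed the largest change of the 9 tested members. It was 20.1, 19.0 and 20.5 CPM in cells alone, 7.15, 7.50 and 7.37 with MDM, 11.5, 12.3 and 12.6 with BxTAM, and 13.4, 11.0 and 12.5 with MiaTAM. The MDM libraries were the lowest, the TAM libraries lay between, and the TAM groups overlapped only each other. Ereg fell by 1.43 ± 0.09 on the log2 scale with MDM, 2.70-fold (adjusted p = 8.9e-12). The falls with BxTAM, -0.71 ± 0.08 (adjusted p = 1.6e-07), and with MiaTAM, -0.69 ± 0.08 (adjusted p = 2.1e-07), were smaller. Set directly against MDM, Ereg was higher with BxTAM by 0.72 ± 0.09 (adjusted p = 3.5e-06) and with MiaTAM by 0.75 ± 0.09 (adjusted p = 1.9e-06). The ratio of Areg to Ereg FPKM moved from 1.54 ± 0.114 in cells alone to 4.96 ± 0.479 with MDM, 3.71 ± 0.188 with BxTAM and 3.90 ± 0.510 with MiaTAM (SD, n = 3).

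Hbegf (chr18:29329764-29340403), which encodes heparin-binding EGF, was the most abundant ligand and was highest with MDM. It was 417, 407 and 421 CPM in cells alone, 525, 532 and 505 with MDM, 486, 492 and 465 with BxTAM, and 419, 438 and 445 with MiaTAM. The MDM and BxTAM libraries lay above all others and did not overlap, whereas the MiaTAM libraries overlapped those of cells alone. Hbegf rose by 0.33 ± 0.04 on the log2 scale with MDM (adjusted p = 2.5e-07) and by 0.21 ± 0.04 with BxTAM (adjusted p = 6.8e-05). With MiaTAM the difference was 0.06 ± 0.04 (adjusted p = 0.15) with the main scaling and 0.14 with upper-quartile scaling, where it passed (adjusted p = 0.0035). The log2 difference of MiaTAM from MDM was -0.26 ± 0.04 (adjusted p = 1.6e-05) and that of MiaTAM from BxTAM was -0.15 ± 0.04 (adjusted p = 0.0081). The difference of BxTAM from MDM, -0.11 ± 0.04 (adjusted p = 0.026), was lost without MDM replicate 1, MDM replicate 2 or BxTAM replicate 3 (adjusted p = 0.071, 0.099 and 0.14).

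Tgfa (chr4:117962319-118046344), which encodes transforming growth factor alpha, was nearly level over the groups. It was 336, 339 and 334 CPM in cells alone, 306, 313 and 309.6 with MDM, 327, 326 and 320 with BxTAM, and 334, 328 and 335 with MiaTAM. The MDM libraries lay below all others. The fall with MDM was -0.12 ± 0.03 on the log2 scale (adjusted p = 0.0040), and with upper-quartile scaling it was -0.06 and no longer called (adjusted p = 0.12). MiaTAM was higher than MDM by 0.10 ± 0.03 (adjusted p = 0.021), a call lost without MDM replicate 1 (adjusted p = 0.069) or MiaTAM replicate 3 (adjusted p = 0.060). Btc (chr14:18231860-18272484), the gene of betacellulin, had 12 to 26 counts per library and group means of 0.928 to 1.08 CPM. It was called in no comparison. Its 95% interval for MDM against cells alone was wide, -0.49 to 0.79, and changes within that range remained possible at this depth.

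Errfi1 (chr5:167952728-167966009), the feedback inhibitor, was the most abundant of the members. It was 869.6, 859 and 865 CPM in cells alone, 1048, 1050.5 and 1066 with MDM, 1377, 1369 and 1342 with BxTAM, and 1397, 1434 and 1423 with MiaTAM. The groups were separated in steps, with cells alone lowest, MDM next and the TAM groups highest, and no libraries overlapped. Errfi1 rose by 0.29 ± 0.03 on the log2 scale with MDM (adjusted p = 2.7e-07), by 0.66 ± 0.03 with BxTAM (adjusted p = 1.0e-12) and by 0.71 ± 0.03 with MiaTAM (adjusted p = 2.4e-13). It was higher with BxTAM than with MDM by 0.37 ± 0.03 (adjusted p = 4.1e-08) and with MiaTAM than with MDM by 0.43 ± 0.03 (adjusted p = 4.6e-09). The TAM groups were not distinguished by the test (0.06 ± 0.03, adjusted p = 0.23, 95% interval -0.01 to 0.13).

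**Figure D2:**
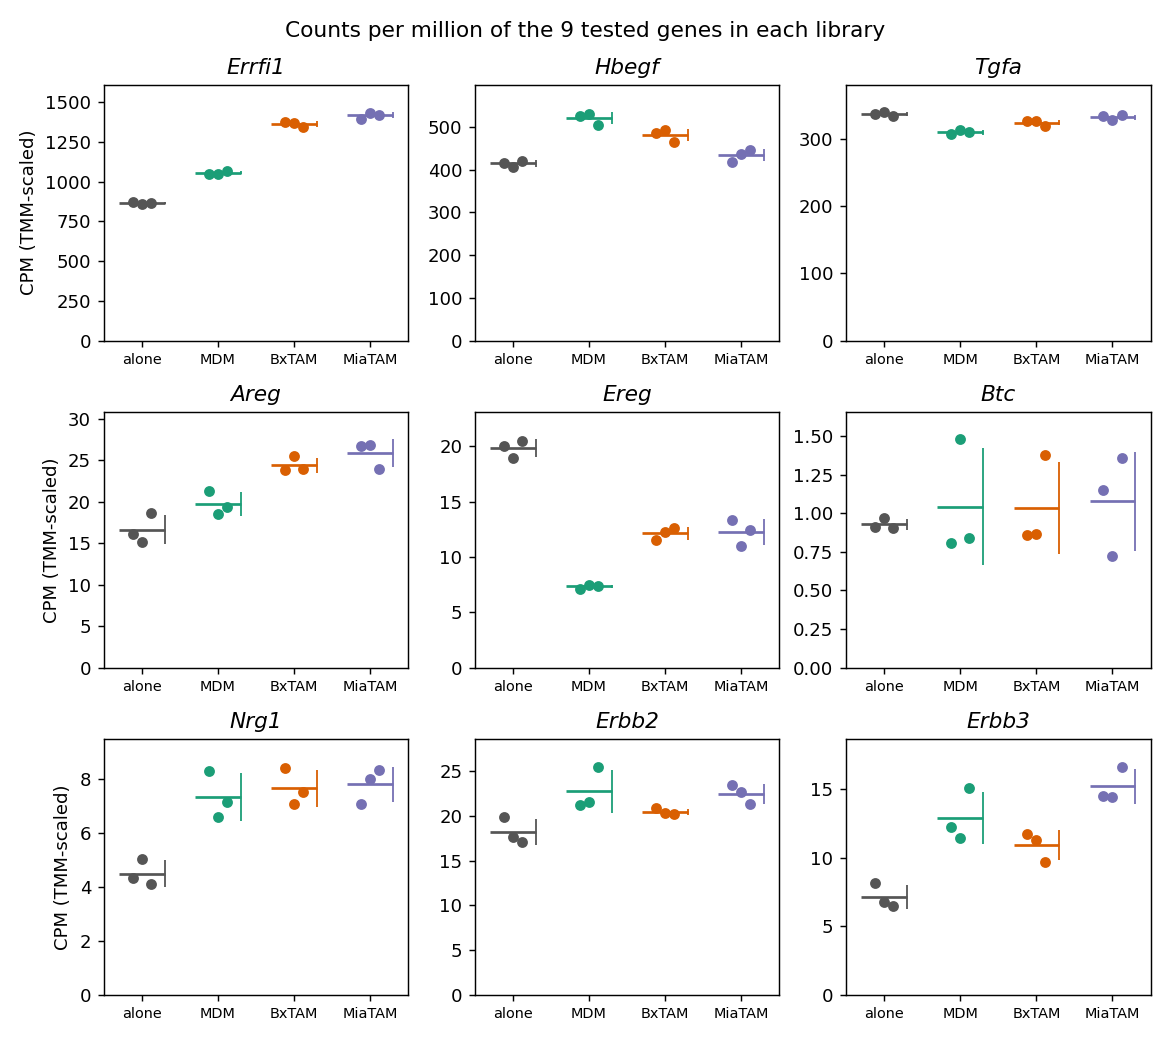
TMM-scaled CPM of the 9 tested genes on axes that start at 0, with 1 point per library, a horizontal line at the group mean and a vertical line of 1 SD to each side of it. Errfi1 climbs from 864 CPM in cells alone to 1418 with MiaTAM, Ereg is lowest with MDM at 7.34 CPM, and Erbb3 and Nrg1 are lowest in cells alone.

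Counted over the family, 8 of the 9 tested members were called in MDM co-culture against cells alone, 6 higher and 2 lower (Ereg and Tgfa), with a median log2 change of 0.29. In that comparison 65.1% of all tested genes were called, 32% higher and 33.1% lower. With BxTAM 6 were called, 5 higher and Ereg lower, with a median of 0.21, where 60.9% of all genes were called, 30% higher and 30.9% lower. With MiaTAM 6 were called, again 5 higher and Ereg lower, with a median of 0.31, where 65.1% of all genes were called, 31.4% higher and 33.7% lower. The share of members called was thus near the background or moderately above it. Most of the called members were higher, while the calls over all genes were nearly even with the main scaling and mostly higher with upper-quartile scaling. Upper-quartile scaling gave 4579 genes higher and 3497 lower with MDM, 4348 and 3213 with BxTAM, and 4664 and 3446 with MiaTAM, and 6 members higher and 1 lower in each of these comparisons. These 3 comparisons share the same libraries of cells alone. The members, and the pathway lists below, were chosen with earlier results of these data known. Their shares and directions are therefore descriptive and carry no test.

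BxTAM against MDM gave 4 called members, with Areg, Ereg and Errfi1 higher and Hbegf lower, where 34.7% of all genes were called, 17.4% higher and 17.3% lower. MiaTAM against MDM gave 5, the higher ones being Areg, Ereg, Errfi1 and Tgfa and the lower one Hbegf, where 41% of all genes were called, 19.8% higher and 21.1% lower. These comparisons share the MDM libraries. MiaTAM against BxTAM gave 2, Erbb3 higher and Hbegf lower, where 24.2% of all genes were called, 11% higher and 13.3% lower. Changes of 2-fold or more were seen for Ereg with MDM and Erbb3 with MiaTAM, each against cells alone. The median change of all tested genes lay between -0.0089 and 0.0019 in the 6 comparisons.

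**Figure D3:**
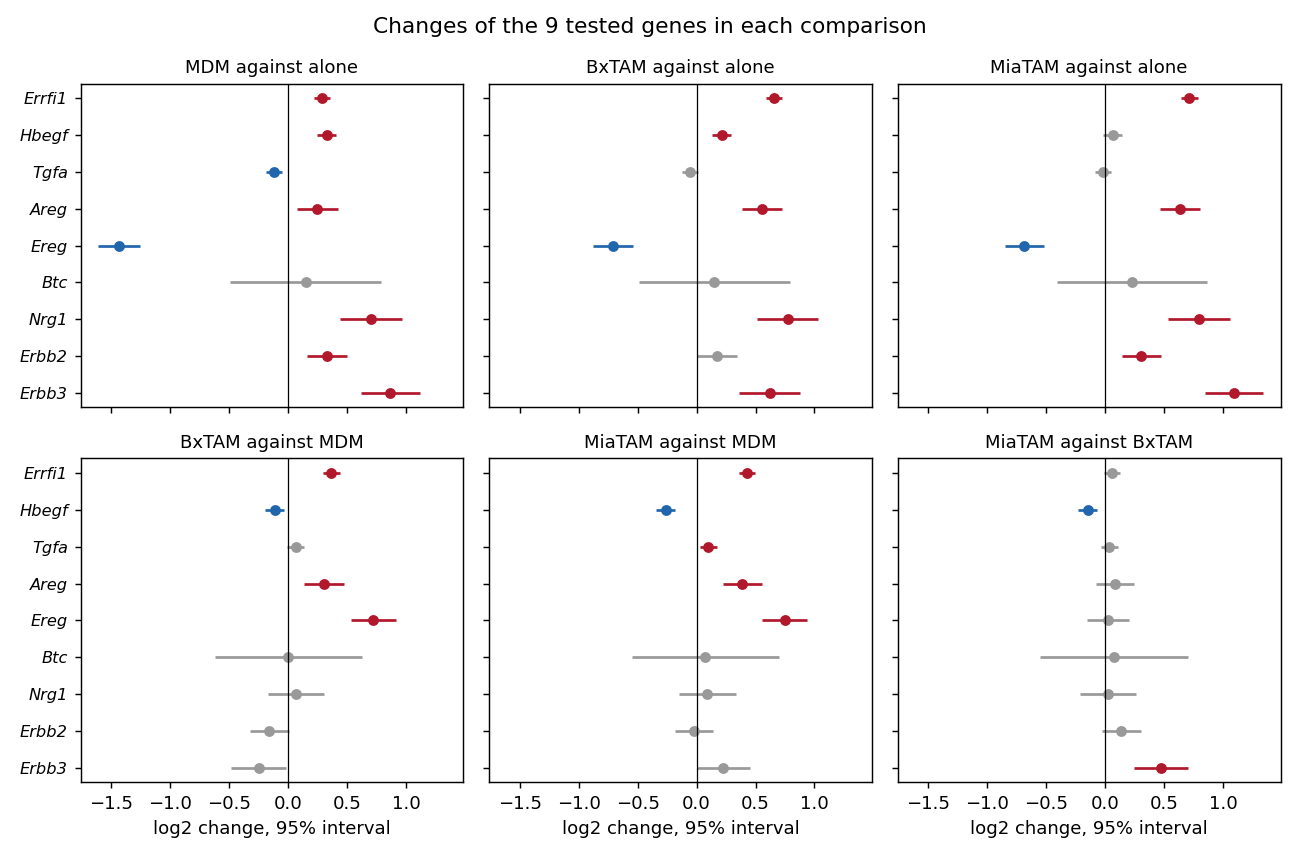
Log2 change (points) with its 95% interval (lines) of the 9 tested genes in the 6 comparisons, where red marks genes called higher, blue genes called lower and grey genes not called. Against cells alone Ereg is the gene furthest to the left in each panel, and between MiaTAM and BxTAM only Erbb3 and Hbegf are coloured.

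The other receptors and ligands of the family were sparse. Epgn and Nrg3 had 0 counts in all libraries, Nrg4 had 5 counts in total and Egf 113. Nrg2, a neuregulin paralogue with 325 counts in total, rose with MiaTAM from 1.04 ± 0.0906 to 1.97 ± 0.240 CPM (SD, n = 3), a log2 change of 0.92 ± 0.22 (adjusted p = 0.0010). With the main scaling it was not called in the other 5 comparisons, though it was with MDM against cells alone under upper-quartile scaling, and Egf was called in none of the 6.

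All 11 tested genes of ligand release, the proteases that cut membrane-bound ligands and their regulators, were called in MDM co-culture against cells alone. Of these, 6 were higher and 5 lower, where 65.1% of all tested genes were called. With upper-quartile scaling 6 were higher and 4 lower. Furin, the proprotein convertase that matures metalloproteases and growth factor precursors, rose from 61.8 ± 1.56 CPM alone to 111 ± 8.30 with MDM, 105 ± 3.39 with BxTAM and 125 ± 4.89 with MiaTAM. Adam15, a membrane metalloprotease, rose by 0.61 ± 0.05, 0.65 ± 0.05 and 0.81 ± 0.04 on the log2 scale (adjusted p = 2.4e-10, 1.1e-10 and 3.1e-12). Adam17, the main sheddase of Areg, Tgfa and Hbegf, fell in all 3 co-cultures, by 0.48 ± 0.05 with MDM (adjusted p = 1.8e-08), 0.18 ± 0.05 with BxTAM (adjusted p = 0.0023) and 0.33 ± 0.05 with MiaTAM (adjusted p = 3.4e-06). Adam19, a protease that cuts neuregulin, fell with MDM from 80.0 ± 3.72 to 48.9 ± 3.26 CPM and was 90.1 ± 1.10 with BxTAM and 84.5 ± 5.47 with MiaTAM. Against cells alone 6 of the 11 were higher and 2 lower with BxTAM (all genes 60.9% called). With MiaTAM 5 were higher and 3 lower (all genes 65.1%). With upper-quartile scaling these counts were 6 and 2 with BxTAM and 7 and 2 with MiaTAM. Against MDM 4 were higher and 1 lower with BxTAM (all genes 34.7%) and 7 higher and 1 lower with MiaTAM (all genes 41%). MiaTAM against BxTAM gave 3 and 3 (all genes 24.2%), and 5 and 3 with upper-quartile scaling. These shares of all genes also stand behind the counts of the lists that follow.

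Adaptors and kinases downstream of the receptors showed no common direction. Of 31 tested, 11 rose and 14 fell with MDM, 11 rose and 10 fell with BxTAM, and 12 rose and 8 fell with MiaTAM, with median log2 changes of -0.04, -0.02 and 0.01. With upper-quartile scaling these were 12 and 11, 11 and 9, and 14 and 6, with medians of 0.02, 0.03 and 0.08. The small GTPases Hras and Nras fell in each co-culture. Hras went from 31.0 ± 1.58 CPM in cells alone to 18.6 ± 1.59 with MDM, 20.4 ± 0.682 with BxTAM and 22.4 ± 1.01 with MiaTAM. The catalytic PI3K subunits moved in opposite directions, with Pik3ca higher by 0.52 ± 0.04, 0.36 ± 0.04 and 0.14 ± 0.04 (adjusted p = 5.5e-10, 1.8e-07 and 0.0056). Pik3cb fell from 63.9 ± 1.52 CPM to 43.5 ± 0.935, 40.2 ± 0.842 and 41.1 ± 3.08 in the same order. Between the co-cultures 7 were higher and 2 lower with BxTAM against MDM, 11 and 4 with MiaTAM against MDM, and 3 and 5 with MiaTAM against BxTAM.

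Among 22 tested genes of receptor turnover and inhibition, 12 rose and 3 fell with MDM, 11 rose and 2 fell with BxTAM, and 13 rose and 5 fell with MiaTAM, with medians of 0.14, 0.14 and 0.18. Over all tested genes 32%, 30% and 31.4% were higher and 33.1%, 30.9% and 33.7% lower, a balance that moved upward with upper-quartile scaling as given above. With that scaling the list gave 15 higher and 2 lower, 14 and 1, and 13 and 3. Sh3kbp1, an adaptor that works with Cbl in receptor internalisation, rose from 7.79 ± 0.990 CPM to 15.3 ± 0.986, 15.6 ± 0.879 and 15.9 ± 2.10. Tnk2, a kinase linked to Egfr degradation, rose by 0.28 ± 0.05 with MDM, 0.45 ± 0.05 with BxTAM and 0.65 ± 0.05 with MiaTAM (adjusted p = 2.1e-05, 4.9e-08 and 1.5e-10). Socs5, a suppressor of Egfr signalling, rose with BxTAM (0.29 ± 0.04, adjusted p = 3.3e-06) and MiaTAM (0.35 ± 0.04, adjusted p = 1.7e-07) but was not called with MDM (0.09 ± 0.04, adjusted p = 0.068), and it was higher with each TAM group than with MDM. Ptpn12, a tyrosine phosphatase, fell from 186 ± 9.54 CPM to 142 ± 7.14, 152 ± 5.47 and 142 ± 4.07. Against MDM 6 were higher and 5 lower with BxTAM and 4 higher and 5 lower with MiaTAM, and MiaTAM against BxTAM gave 3 and 2.

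The output genes of the ERK pathway, a main route downstream of ErbB receptors, were called in both directions, more of them higher. Of 23 tested, 12 rose and 8 fell with MDM, 12 rose and 8 fell with BxTAM, and 10 rose and 6 fell with MiaTAM. The medians were 0.15, 0.20 and 0.16. Over all tested genes 32%, 30% and 31.4% were higher and 33.1%, 30.9% and 33.7% lower. With upper-quartile scaling the list gave 13 higher and 6 lower, 12 and 4, and 11 and 4, with medians of 0.21, 0.26 and 0.23. Egr1, an immediate early transcription factor, was 107 ± 2.66 CPM in cells alone, 260.0 ± 5.81 with MDM, 90.2 ± 3.09 with BxTAM and 101 ± 3.99 with MiaTAM. It was highest with MDM, the co-culture in which Errfi1 was lowest. Phlda1 rose by 0.44 ± 0.05, 0.63 ± 0.05 and 0.79 ± 0.05 (adjusted p = 1.2e-07, 7.6e-10 and 1.7e-11), the order of the groups seen for Errfi1. Ier3 rose from 339.5 ± 9.94 CPM to 585 ± 31.9, 547 ± 30.2 and 659 ± 7.42, while Emp1, a membrane protein gene, fell from 1500 ± 43.4 CPM to 912 ± 34.8, 1132 ± 36.2 and 1159 ± 23.0. Against MDM 6 were higher and 5 lower with BxTAM and 8 higher and 5 lower with MiaTAM, and MiaTAM against BxTAM gave 4 and 2.

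Schwann cell genes downstream of neuregulin were thinly covered, with 7 of 12 tested. Of these, 3 rose and 3 fell with MDM, 3 rose and 2 fell with BxTAM, and 2 rose and 2 fell with MiaTAM. Egr2, the transcription factor of myelination, rose from 5.88 ± 0.482 CPM to 12.9 ± 1.51 with MDM, 8.22 ± 0.465 with BxTAM and 8.62 ± 0.535 with MiaTAM. Jun, which marks the repair state of Schwann cells, rose by 0.36 ± 0.04, 0.33 ± 0.04 and 0.35 ± 0.04 (adjusted p = 3.7e-07, 1.7e-06 and 6.7e-07). Nab1, a partner of Egr2, fell with MDM from 168 ± 4.65 to 128 ± 4.97 CPM and was not called with either TAM group. Against MDM 3 were higher and 2 lower with BxTAM and 2 higher and 3 lower with MiaTAM, and MiaTAM against BxTAM gave 1 and 2.

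**Figure D4:**
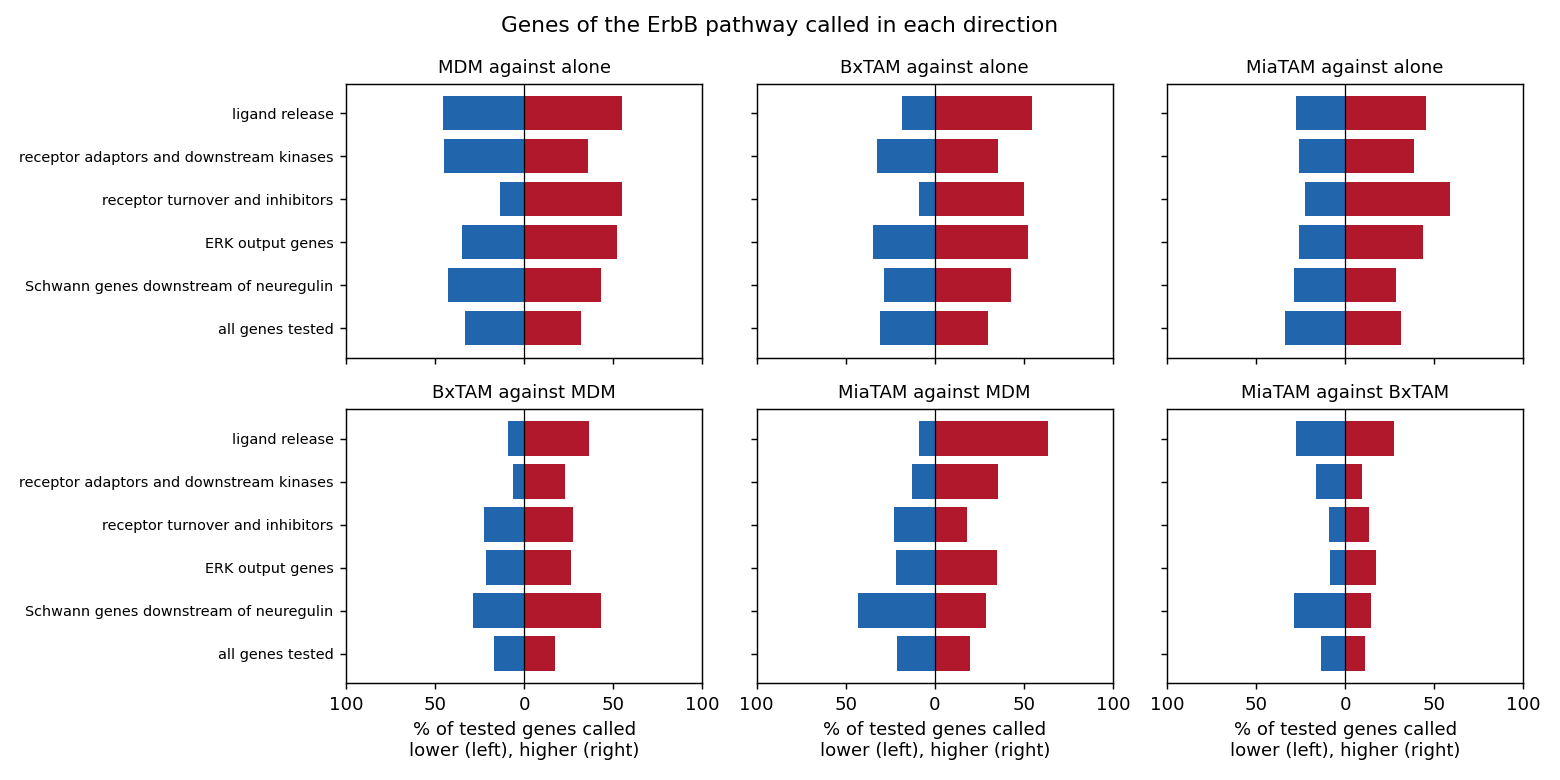
Share of tested genes called higher (red, to the right) and lower (blue, to the left) for 5 lists of the ErbB pathway and for all 12360 tested genes, in percent, in the 6 comparisons. Of the 22 tested genes of receptor turnover and inhibition, 12 are higher and 3 lower with MDM against cells alone, where 32% of all genes are higher and 33.1% lower with the main scaling.

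Across the 12 libraries, the genes whose log2 CPM was most like that of Erbb3, among 8161 compared, included Myrf (Pearson r = 0.965) and Cadm4 (0.964). Myrf, which encodes a transcription factor of myelinating glia of the central nervous system, averaged 21.9, 36.7, 31.3 and 40.6 CPM in cells alone, MDM, BxTAM and MiaTAM. For Ereg they were Galnt1 (0.987), Cars (0.985) and Naa25 (0.984), and Cars, a transfer RNA synthetase gene, averaged 267, 129.8, 193 and 193 CPM. These values describe libraries that share groups, so they reflect the group means and carry no test.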

How the data were processed

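RNA was profiled in 12 libraries; groups were read from the sample labels. Per the labels' protocols, total RNA was converted with a stranded mRNA kit. The tools CASAVA, HISAT2 and StringTie 1.3.0, with the genome build Rnor_6.0, are named in the submitters' processing notes. The counting tool, annotation release, strand setting and filters are not stated there, so overlapping or antisense genes could not be separated. The deposited table gives raw counts per gene, per the file headers. The deposited FPKM values were scaled by gene length and library total; counts divided by FPKM gave, for any gene, a length that differed between libraries by no more than 0.0945%. Of 30957 genes, 17963 had a count.

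Counts were fitted in edgeR 4.0.16 (R 4.3.3) with filterByExpr by group, TMM factors of 0.98 to 1.014, and 1 quasi-likelihood fit with a mean per group and no block (8 residual degrees of freedom). A gene was called at a Benjamini-Hochberg adjusted p under 0.05 over the 12360 genes tested in that comparison. SE is the log2 change over the square root of F. FPKM served to compare levels between genes, for the sums and ratios of genes given by group or library, and in the limma alternatives. No duplicated library was found.

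The members and lists were chosen with earlier results of these data known. Every member is named; each list adds up to 4 tested genes with the smallest p of the F test over the 4 groups, and genes most like a member are the 3 of highest correlation for the receptor and ligand of smallest p, at a mean of at least 10 CPM. Not every gene selected this way is reported. The symbols Crkl, Ier2 and Pou3f1 of the lists were not matched, and Grb2 stood on 2 genes. The design text counts 3 kinds of TAM, of which only BxTAM and MiaTAM were analysed here. Alternatives were DESeq2 size factors and the DESeq2 1.42.0 Wald test, upper-quartile scaling, no filter, a fit of only the groups compared, a replicate block, limma 3.58.1 on log2(FPKM + 1) and log2(FPKM + 0.1), and each library left out.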

Additional observations from a re-analysis of the deposited data

Results flagged for a closer look

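Erbb3 was noted because its response differed between the macrophage groups. The change from MDM to MiaTAM exceeded that from MDM to BxTAM by 0.48 on the log2 scale (SE 0.11, edgeR quasi-likelihood adjusted p = 0.0040), and all 3 MiaTAM libraries were above all 3 BxTAM libraries. MDM cancels out of that difference, so it is the test of MiaTAM against BxTAM given above and not a second result. Neither change from MDM was itself called. Hbegf was noted for the same reason: the corresponding difference, again the test of MiaTAM against BxTAM, was -0.15 (SE 0.04, adjusted p = 0.0081), with all 3 MiaTAM libraries below all 3 BxTAM libraries.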

How the results depend on the processing

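Over 54 member and comparison pairs, 756 values under alternatives gave 712 with the same direction and side of the threshold, 9 lost calls, 8 gained calls and no called value that changed sign; 27 values not called in either setting changed sign. Losses and gains by library or scaling are given in the report; in addition, Tgfa with MiaTAM against MDM was lost without the count filter (adjusted p = 0.058), Tgfa with BxTAM against MDM was gained in limma (adjusted p = 0.042 and 0.048), and Erbb2 with BxTAM was gained with upper-quartile scaling and when only those groups were fitted (adjusted p = 0.022 and 0.048). Upper-quartile scaling moved the median of all genes by at most 0.0739. Counts per pathway list were recomputed with that scaling after the data had been seen. In the list of other receptors and ligands, 1 gene in place of 0 was called with MDM against cells alone. Every other list total, both directions together, stayed within 1.5 times. Counts in a single direction moved more in places: 8 ERK output genes were lower with BxTAM against cells alone with the main scaling and 4 with upper-quartile scaling. Genes called between MiaTAM and BxTAM numbered 2997, and 1933 to 3113 with 1 library left out: 1978 without BxTAM replicate 2, 1976 without BxTAM replicate 3 and 1933 without MiaTAM replicate 2. The replicate numbers are not stated to be shared cultures, so they were not taken as pairs. Same-numbered libraries showed deviation correlations of -0.127 to 0.0892, and differently numbered ones -0.122 to 0.186. With a replicate block, 8, 6, 6, 4, 5 and 2 members were called in the 6 comparisons, as without it. Between MiaTAM and BxTAM, 2993 genes were called with the block. Depth limits Egfr and Btc.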

Other observations

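Areg and Ereg lie 45175 bases apart on chromosome 14 of Rnor_6.0, in a stretch from Parm1 to Cxcl6 that was chosen after its values were seen and that holds 15 genes, 8 of them tested. With MDM against cells alone, 6 of the 8 fell, Areg rose and Btc was not called, where 33.1% of all tested genes were lower and 32% higher. The CXC chemokine genes fell most, Cxcl6 by 2.69 on the log2 scale (adjusted p = 7.5e-11), Cxcl3 by 1.87 (adjusted p = 1.8e-09) and Cxcl1 by 1.51 (adjusted p = 4.5e-15). Cxcl1, a neutrophil attractant, averaged 232 ± 19.7 CPM in cells alone and 81.9 ± 2.14 with MDM (SD, n = 3). Parm1 fell by 0.85 (adjusted p = 1.2e-12) and Mthfd2l, a mitochondrial folate enzyme, by 0.38 (adjusted p = 0.0074).

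Against MDM, 7 of the 8 were higher with BxTAM and 7 with MiaTAM, Btc not being called in either. Over all tested genes 17.4% and 19.8% were higher in these comparisons. Cxcl3 was higher by 2.19 with BxTAM (adjusted p = 7.9e-10) and by 1.96 with MiaTAM (adjusted p = 5.0e-09), and Parm1 by 0.77 and 0.80 (adjusted p = 4.8e-11 and 2.8e-11). Both comparisons with MDM share the MDM libraries.

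Bace1, a protease that cuts neuregulin 1 and was named after its values were seen, rose by 0.46 ± 0.09 with MDM, 0.51 ± 0.09 with BxTAM and 0.72 ± 0.09 with MiaTAM (adjusted p = 1.0e-04, 4.0e-05 and 3.0e-07).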
